A study of Mus musculus with 34 samples.

Results

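The 500 longest stretches of chromatin marked by H3K27ac in control microglia are described here. They were found by merging the peaks of the 4 control H3K27ac lists on autosomes 1 to 19 and X, keeping the 32326 regions present in all 4 lists, and joining regions separated by gaps of up to 12500 bp. This gave 15346 joined domains, which were ranked by the length covered by peaks, in bp, averaged over the 4 lists. The first 500 were kept, so the members were chosen by their H3K27ac in the Ctrl lists. Covered length means the bases of a domain that lie under called peaks, and it is given below in kb per library.

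The series profiled histone marks in microglia of the mouse hippocampus by ULI-NChIP-seq, chromatin immunoprecipitation from native chromatin for very small cell numbers. Control mice (Ctrl) were compared with mice labelled FGR (growth restriction before birth), and both groups carried the Tmem119-tdTomato+/- reporter, in which a gene of microglia drives a red fluorescent protein. Each group had 4 libraries for each of H3K27ac, H3K9ac, H3K4me3 and H3K9me3. The age given is 3 weeks after birth for replicates 1 to 3, while replicate 4 has no age in its labels. The labels do not say whether replicates were separate animals or pools, so p-values reflect only how these libraries vary, and that variation may be technical.

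H3K27ac and H3K9ac are acetyl marks found on active promoters and enhancers, H3K4me3 is concentrated at active promoters, and H3K9me3 marks silent heterochromatin. Long runs of neighbouring H3K27ac regions are often called super-enhancers or stretch enhancers. They tend to lie over genes that define a cell type, and in microglia these include receptors for nucleotides, chemokines and TGF-beta and the transcription factors of the macrophage lineage.

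Sequences of gene starts inside the domains are shown first, because these domains are described in detail below and the genes belong to the list of homeostatic microglial genes or to that of transcription factors. Each line gives the 250 bases upstream of a RefSeq start (GRCm38.p6, the assembly behind the mm10 build of the peak lists), written 5′ to 3′ on the gene's strand. Capitals mark exact matches to a motif of the searched list. Mef2c encodes a transcription factor of microglia, Tgfbr2 a receptor subunit for TGF-beta, and P2ry12 and P2ry13 encode receptors for ADP.
Mef2c, chr13:83523406-83523655, plus strand: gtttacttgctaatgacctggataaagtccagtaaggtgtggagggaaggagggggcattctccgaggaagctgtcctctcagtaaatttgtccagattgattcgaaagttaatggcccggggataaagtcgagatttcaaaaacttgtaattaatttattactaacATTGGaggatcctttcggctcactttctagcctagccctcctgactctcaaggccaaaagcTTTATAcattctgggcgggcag
Tgfbr2, chr9:116175364-116175613, minus strand: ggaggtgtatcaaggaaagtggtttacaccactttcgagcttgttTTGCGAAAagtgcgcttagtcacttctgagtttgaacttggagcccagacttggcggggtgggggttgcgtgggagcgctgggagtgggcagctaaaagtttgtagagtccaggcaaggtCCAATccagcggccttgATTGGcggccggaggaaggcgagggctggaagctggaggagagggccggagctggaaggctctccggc
P2ry12, chr3:59262986-59263235, minus strand: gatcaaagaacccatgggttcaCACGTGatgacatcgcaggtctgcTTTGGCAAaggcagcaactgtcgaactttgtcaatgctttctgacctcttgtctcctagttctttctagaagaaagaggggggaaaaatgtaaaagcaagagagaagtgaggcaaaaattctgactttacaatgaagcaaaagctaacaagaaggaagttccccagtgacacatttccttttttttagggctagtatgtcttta
P2ry13, chr3:59210883-59211132, minus strand: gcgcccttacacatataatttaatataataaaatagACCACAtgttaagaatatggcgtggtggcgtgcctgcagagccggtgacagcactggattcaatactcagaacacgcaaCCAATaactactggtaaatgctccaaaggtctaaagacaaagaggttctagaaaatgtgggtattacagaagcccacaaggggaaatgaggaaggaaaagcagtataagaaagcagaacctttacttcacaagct

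In these lines Mef2c held a CCAAT box (CCAAT) and a TATA box (TATAAA), both on the reverse strand. Tgfbr2 held a C/EBP match (TTGCNNAA) and a pair of CCAAT boxes, P2ry12 an E-box (CACGTG) and a C/EBP match, and P2ry13 a RUNX match (TGTGGT) and a CCAAT box. The other motifs searched on both strands were PU.1 (GAGGAAGT), an ETS-IRF composite, IRF, AP-1 (TGANTCA) and SP/KLF (GGGGCGGGG). Matches of PU.1, the composite and IRF can share bases.

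The RefSeq table placed 832 gene starts of 649 genes inside the 500 domains, out of 21044 starts in all. Their upstream bases had a median GC content of 59.6% and a median of 15 CpG dinucleotides, against 55.6% and 10 over all starts. An SP/KLF match was held by 19.5% of them and by 14.1% of all starts. A PU.1 match was held by 2.88% and 2.25%, an E-box by 8.41% and 6.70%, and a TATA box by 8.53% and 11.7%. The remaining shares were 34.3% and 35.6% for the CCAAT box, 11.7% and 12.2% for RUNX, 9.50% and 9.18% for C/EBP, 4.21% and 6.17% for AP-1, 2.04% and 2.19% for the ETS-IRF composite and 1.92% and 2.98% for IRF. A match to these letters is not a measured binding site.

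Of 1005 miRNA hairpins in the RefSeq table, 35 (3.48%) lay inside 28 of the domains. Those of a list of miRNAs studied in myeloid cells fell into a pair of clusters, whose mature sequences are shown with the seed, bases 2 to 8, in capitals.
miR-29a-3p: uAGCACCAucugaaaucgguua
miR-29b-3p: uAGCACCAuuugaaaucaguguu
miR-23a-3p: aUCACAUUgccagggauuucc
miR-27a-3p: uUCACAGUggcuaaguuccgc
miR-24-3p: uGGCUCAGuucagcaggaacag

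miR-29a and miR-29b-1, which share the seed AGCACCA, lay in the domain chr6:31059403-31128129, which overlapped no protein-coding gene and whose nearest one was Klf14. The hairpins of miR-23a, miR-27a and miR-24-2 lay in the domain chr8:84186302-84277172, which also held Zswim4, Ccdc130, Mri1 and D8Ertd738e. Values of both domains are given with the other members below. Cx3cr1, Gpr34, Dock10, Sall1, Spi1 and other list genes named below outside the naming rule were chosen after their values were seen, as was the C1q domain.

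The domains spanned 24.8 to 214 kb, with a median of 62.2 kb, and together made up 33.7 Mb. Covered length ran from 18.9 to 132 kb with a median of 27.7 kb. Each domain joined 1 to 35 of the regions, with a median of 9. In all, 474 domains overlapped a protein-coding gene and 26 overlapped none, and 367 (73.4%) held an annotated gene start, against 39.7% of the 14846 other domains. They overlapped 930 protein-coding genes, 255 domains overlapped a single gene, and the most genes in 1 domain, 15, were replication-dependent histone genes such as H2bc6 and H3c6 (domain 290). Chromosome 2 held 51 domains and the X chromosome 4.

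The cut at 500 was not a natural break. The last 3 domains inside it, at Mideas, Ap1b1 and Cadm1, covered 18.91, 18.88 and 18.86 kb in the mean of the Ctrl lists. The first 3 outside it, at Itgav, Ttc28 and Il1a with Ckap2l, covered 18.83, 18.75 and 18.75 kb. A cut where the ranked curve reaches a slope of 1, as is used to call super-enhancers, would have kept 1068 domains.

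**Figure D1:**
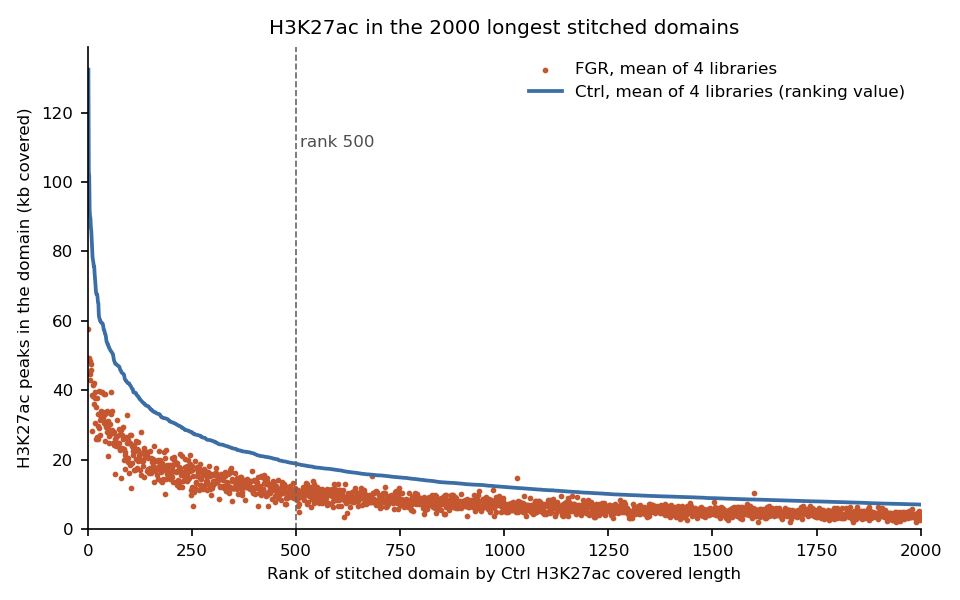
Covered length of H3K27ac peaks (kb, vertical axis) in the longest joined domains, ordered by the Ctrl mean (horizontal axis, rank). The line is the Ctrl mean of 4 libraries and each point the FGR mean of 4 libraries; the Ctrl line falls from 132 kb at rank 1 to 18.9 kb at rank 500, and the FGR points of the first 500 lie below it.

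The first 20 domains covered 67.8 to 132 kb. Domain 1 (chr1:131317328-131529409) lay over Srgap2, which encodes a GTPase-activating protein that acts on membrane protrusions. Domain 2 (chr10:25359192-25512610) lay over Epb41l2, a membrane skeleton protein gene. Domain 3 (chr12:102281741-102470454) lay over Rin3, Lgmn and Golga5, of which Lgmn encodes the lysosomal protease legumain. Next came Itgb5, an integrin subunit gene, Frmd4a and Etv6, an ETS family repressor whose domain had the longest span, 214 kb, and the most joined regions, 35. Ranks 7 to 20 held Mef2c, Zmynd8 with Ncoa3, the engulfment gene Elmo1, the phagocytic receptor gene Mertk, Apbb1ip, Ldlrad4, Tgfbr2, the Src family kinase gene Lyn, Qk, Wasf2, Abhd12 with Gins1 and Pygb, Capzb, Zfhx3 and Ssh2.

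Genes of homeostatic microglia were placed in the domains more often than protein-coding genes in general. Of 28 such genes in the list, 21 (75%) overlapped a domain, against 930 of all 21627 protein-coding genes (4.30%). They included Tgfbr2, Bin1, P2ry12, P2ry13, Tmem119, Selplg, Entpd1, Ltc4s, Cx3cr1, Sparc, Crybb1, Siglech, Golm1, Csf1r, Tgfbr1, Gpr34, Cst3, Fcrls, Rhob and P2ry6. Of 30 transcription factor genes, 11 (36.7%) were inside: Mef2c, Fli1, Smad3, Ikzf1, Ets1, Zeb2, Sall1, Elf1, Spi1, Nfe2l2 and Tfeb. The counts were 10 of 25 for complement and phagocytosis, 11 of 22 for chemotaxis and motility, 7 of 26 for genes of disease-associated microglia, 6 of 26 for inflammatory genes, 6 of 25 for lysosomal genes, 1 of 19 for the interferon response (Ifnar2) and 4 of 15 for housekeeping genes. Some genes, such as Elmo1, Cx3cr1, Ctsd, Cd68 and B2m, are in more than 1 list. Genes in the domains were also longer, with a median of 27.3 kb against 17.1 kb for the other genes, and the part of length in these shares was not tested.

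Markers of other cells were nearly absent from the domains. None of 16 genes of neurons, 12 of astrocytes, 13 of the oligodendrocyte lineage, 11 of endothelial and mural cells and 12 of lymphocytes and neutrophils overlapped a domain. Of 12 genes of border-associated macrophages, Stab1 alone did, in domain 335. Over all protein-coding genes the share was 4.30%. Lists this short would hold few or no genes at that share, and the absence was not tested.

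The FGR lists differ from the Ctrl lists in ways that bear on every comparison below. The lowest local background of a narrow list, a stand-in for depth solved from fold and p of its peaks, for H3K27ac ran from 2.39 to 2.75 in the Ctrl libraries and from 0.621 to 0.767 in the FGR libraries. The H3K9ac ranges were 2.35 to 2.63 (Ctrl) against 0.523 to 0.659 (FGR), and the H3K4me3 ranges 2.84 to 3.58 against 0.846 to 1.16. No library of either group lay in the range of the other, so this difference and the group cannot be told apart. The smallest H3K27ac peak was 148 to 151 bp wide in FGR lists where it was 267 to 284 bp wide in Ctrl lists.

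The peaks of the libraries labelled FGR H3K4me3 also reached far beyond gene starts. In the 500 domains, 68.5% of the bases of Ctrl H3K4me3 peaks found in at least 3 libraries lay within 2.5 kb of a gene start, against 36.9% for FGR H3K4me3, 24.0% for Ctrl H3K9ac and 31.2% for FGR H3K9ac. Of those Ctrl H3K4me3 bases, 99.8% lay under FGR H3K4me3 peaks. Of the FGR H3K4me3 bases, 19.7% lay under Ctrl H3K4me3 peaks, 87.0% under Ctrl H3K9ac peaks and 96.0% under Ctrl H3K27ac peaks. The length of the Ctrl lists limits these shares. Such bases made up 0.926 Mb for Ctrl H3K4me3, 8.01 Mb for Ctrl H3K9ac and 15.4 Mb for Ctrl H3K27ac, against 4.69 Mb for FGR H3K4me3. The first share could therefore hardly be higher, so these shares cannot compare the marks. Over all 15346 domains, the Spearman correlation of the percent of the span covered by FGR H3K4me3 was 0.776 with Ctrl H3K4me3 and 0.821 with Ctrl H3K9ac. Within the 500 domains the order was the other way, 0.824 and 0.653. FGR H3K9ac had 0.736 with Ctrl H3K4me3 and 0.698 with Ctrl H3K9ac over all domains, and 0.340 and 0.528 within the 500. These points share the domain and its gene content. Values of single domains below rest on the labels of both marks. With those labels exchanged in FGR, the median domain would go from 15.8 to 9.88 kb for H3K9ac and from 2.15 to 8.18 kb for H3K4me3, and no test was run that way.

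In the 500 domains together, each Ctrl H3K27ac library covered 16.1 to 16.7 Mb and each FGR library 7.83 to 9.44 Mb. H3K9ac covered 8.96 to 9.30 Mb in Ctrl and 4.36 to 6.02 Mb in FGR, whereas H3K4me3 covered 1.10 to 1.303 Mb and 4.94 to 5.90 Mb. The groups did not overlap for any of these marks. As a share of all bases that a list covered, the domains held 25.4 to 25.8% of H3K27ac in Ctrl and 24.2 to 26.2% in FGR, ranges that overlap. For H3K9ac the share ran from 20.8 to 21.4% over Ctrl and from 11.6 to 12.3% over FGR libraries, and that of H3K4me3 was 10.4 to 10.8% and 13.96 to 14.8%.

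**Figure D2:**
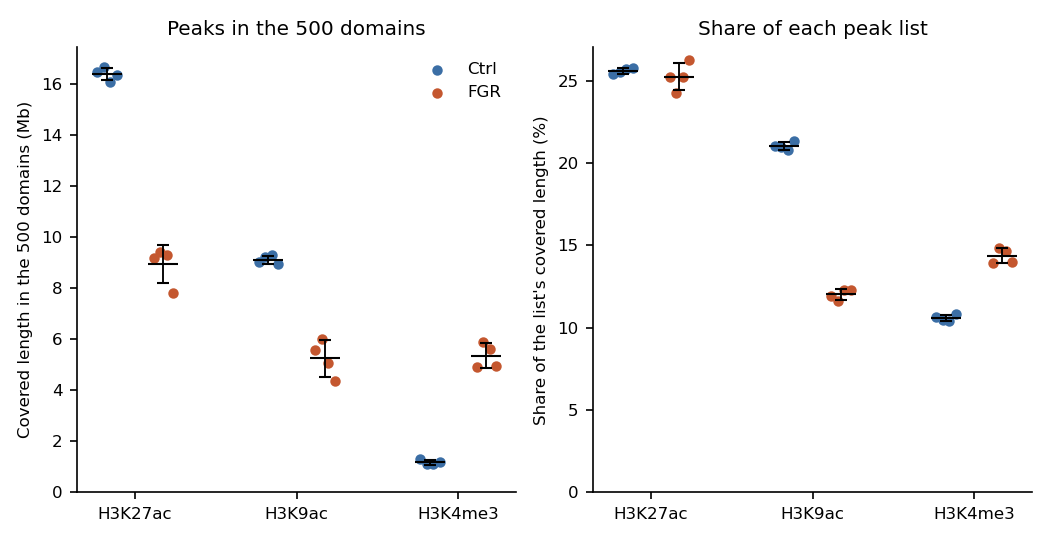
Covered length in the 500 domains (Mb, left) and its share of the whole list's covered length (%, right) for H3K27ac, H3K9ac and H3K4me3, with 1 point per library, a horizontal bar at the mean and whiskers of 1 SD (n = 4). The H3K27ac shares overlap between Ctrl and FGR, while the H3K9ac share is lower and the H3K4me3 share higher in every FGR library.

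H3K27ac over the domains was shorter in FGR and kept much of its ranking. In every one of the 500 domains all 4 FGR libraries lay below all 4 Ctrl libraries, which was also so in 84.1% of all 15346 domains, while 0.013% lay above. Because the Ctrl values chose the members, these values are a description with no test. After quantile normalization 137 domains lay below and 130 above in all FGR libraries, against 11.5% and 17.5% of all domains. After division by the covered genome of each list the counts were 126 below and 122 above, against 16.7% and 13.9%.

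The FGR mean was 55.2% of the Ctrl mean in the median domain, and 53.0% in the median of the 14846 others. It ran from 23.7% at Ankrd11, a chromatin regulator gene, to 77.4% at Cd180, a Toll-like receptor homologue of leukocytes. In 454 of the domains it lay between 40 and 70%. Ranked by FGR coverage, 448 of the 500 stayed within the first 500 of all domains and the lowest of them was at rank 1080.

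When the same rule was applied to the 4 FGR lists, it gave 13978 domains. Of the Ctrl 500, 393 (78.6%) overlapped one of the FGR 500, and 406 of the FGR 500 (81.2%) overlapped one of the Ctrl 500. All 500 overlapped an FGR domain of some length. Among the 94 FGR domains of the first 500 that overlapped none of the Ctrl 500 was that of C1qa, C1qb and C1qc, the genes of the complement component C1q. Within its FGR bounds the mean was 11.997 kb ± 0.757 over the FGR and 15.4 kb ± 0.209 over the Ctrl libraries (SD, n = 4). It ranked 322 in FGR, and the Ctrl domain that overlaps it, which has other bounds, ranked 545.

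The greatest differences in kb lay at the top of the ranking. At Srgap2 the Ctrl libraries covered 133, 135, 129 and 132 kb and the FGR libraries 59.9, 60.1, 61.6 and 49.2 kb. At Mertk, the receptor gene for engulfing dying cells, they covered 79.6, 81.8, 78.2 and 80.4 kb in Ctrl and 30.6, 29.3, 29.0 and 23.7 kb in FGR. Replicate 4 of FGR was the lowest at both. The other domains with the 10 greatest differences were at Epb41l2, Rin3, Itgb5, Frmd4a, Elmo1, Ssh2, Etv6 and Pip4k2a.

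The smallest differences, all still below Ctrl, were at Txnip, Lcp1, a domain near Trib1, Slco4a1, Poc1b, Hs1bp3, Dennd6b, Itpr2, Klf3 and Snx24. At Txnip, a gene of thioredoxin binding and glucose uptake, the Ctrl mean was 21.9 kb and the FGR mean 16.7 kb. At Lcp1, which encodes the actin-bundling protein L-plastin, it was 20.9 and 15.5 kb.

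H3K9ac was measured in separate libraries and was tested, but it is not independent of the rule. Across the 500 domains the percent of the span covered had a Spearman correlation of 0.806 between Ctrl H3K9ac and Ctrl H3K27ac. Of the H3K9ac bases found in at least 3 libraries, 98.5% in Ctrl and 87.7% in FGR lay under Ctrl H3K27ac peaks. The part of the rule in the counts below was not tested. H3K9ac was lower in FGR in 392 of the 500 domains (78.4%) and higher in 25, while 83 did not pass (limma, adjusted p under 0.05). The count of higher domains was 44 without FGR replicate 4 and 13 when only gaps of up to 4 kb were joined. Over all 14379 domains tested, 65.2% were lower and 4.37% higher. In 394 domains all FGR libraries lay below all Ctrl libraries and in 22 they lay above, against 55.3% and 3.62% of all domains. The split depends on the scaling: after quantile normalization 321 were lower and 101 higher (23.7% and 35.7% of all), and after division by the list's covered genome 408 were lower and 37 higher (62.4% and 4.21%).

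Within the 500 domains the remaining H3K9ac spread far more widely than the remaining H3K27ac. The FGR mean was 49.2% of the Ctrl mean in the median domain, with a range of 0 to 219%. It was under 50% in 256 domains and under 20% in 50, and it was above the Ctrl mean in 64. For H3K27ac it was under 50% in 131 domains and above Ctrl in none. Across the 500 domains the Spearman correlation between the percentages of both marks was -0.0081. Each point is a domain with its own gene content and the libraries of each mark are shared by all points, so this is a description.

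**Figure D3:**
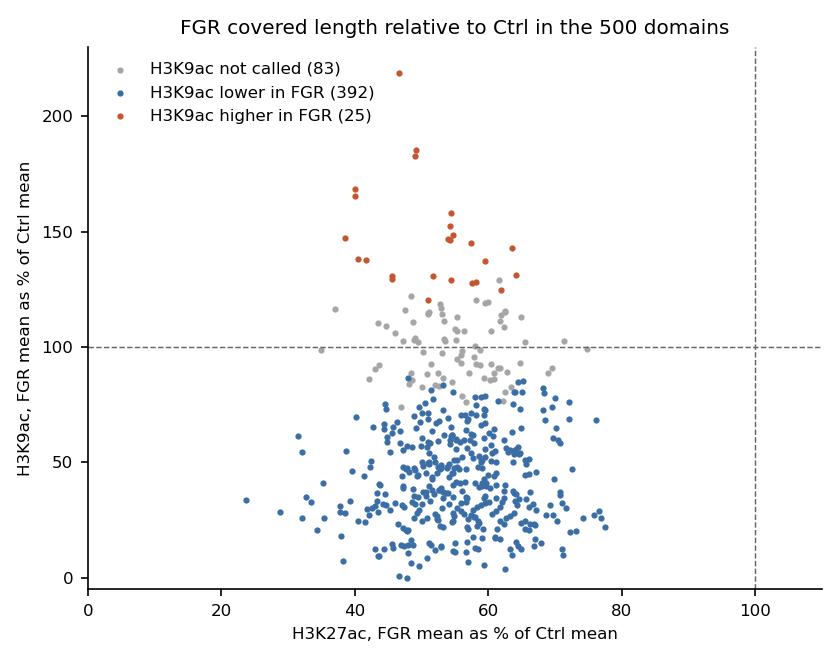
FGR mean as a percentage of the Ctrl mean in each of the 500 domains for H3K27ac (horizontal axis) and H3K9ac (vertical axis), with dashed lines at 100%. H3K27ac points lie between 23.7 and 77.4%, whereas H3K9ac points run from 0 to 219%, and colours show the 392 domains lower, 25 higher and 83 not called for H3K9ac.

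At Srgap2, H3K9ac covered 52.4, 49.1, 56.2 and 55.5 kb in Ctrl and 4.92, 5.95, 4.66 and 4.08 kb in FGR. The groups were far apart, and coverage fell by 48.4 kb (SE 1.53 kb, limma, adjusted p = 4.83e-07). At Epb41l2 it covered 54.2, 55.5, 58.4 and 54.8 kb in Ctrl and 12.53, 14.6, 9.21 and 9.25 kb in FGR. It fell there by 44.3 kb (SE 1.45 kb, adjusted p = 5.15e-07). At Rin3 and Lgmn more was kept, 34.0, 35.9, 29.2 and 26.9 kb in FGR against 53.8, 58.1, 54.0 and 55.1 kb in Ctrl, with a fall by 23.7 kb (SE 2.03 kb, adjusted p = 2.58e-05). No FGR library reached the lowest Ctrl library at any of these domains.

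Among transcription factor domains, H3K9ac was lower in 10 of 11, near the share of 78.4% over all 500, and 1, at the lysosomal regulator gene Tfeb, did not pass (14.8 kb ± 0.831 over Ctrl and 17.5 kb ± 1.95 over FGR libraries, SD, n = 4; adjusted p = 0.0588). The median FGR percentage over these domains was 40%, against 49.2% over all 500. At Mef2c the libraries covered 36.3, 38.2, 39.2 and 37.99 kb in Ctrl and 4.24, 6.06, 3.43 and 2.89 kb in FGR, a fall by 33.8 kb (SE 1.09 kb, adjusted p = 5.15e-07). At Fli1, an ETS factor gene, the mean went from 28.6 to 12.6 kb (adjusted p = 2.85e-05), and at Ikzf1, which encodes Ikaros, from 17.0 to 5.31 kb (adjusted p = 2.95e-05). At Smad3, which encodes a transducer of TGF-beta signals, it went from 31.0 to 25.2 kb (adjusted p = 0.0142).

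The domains of Sall1 and Spi1, which encode Sall1 of microglial identity and the lineage factor PU.1, kept more. Sall1 covered 19.2, 20.5, 18.6 and 18.9 kb in Ctrl and 14.7, 14.01, 12.3 and 11.4 kb in FGR (adjusted p = 0.000867). Spi1 covered 19.1, 19.1, 17.7 and 17.6 kb in Ctrl and 15.7, 16.2, 14.6 and 14.1 kb in FGR (adjusted p = 0.0120). The groups did not overlap at either, but with quantile normalization Sall1 did not pass and Spi1 changed sign without passing.

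Homeostatic domains were lower in H3K9ac in 17 of 19 cases, with none higher, which lies near the shares over all 500, and their median FGR percentage was 43.5%. In the P2ry12 and P2ry13 domain (chr3:59200560-59266767, overlapping Med12l) the libraries covered 33.5, 35.7, 34.6 and 31.4 kb in Ctrl and 5.25, 6.02, 4.34 and 4.66 kb in FGR. Coverage fell by 28.8 kb (SE 1.14 kb, adjusted p = 9.33e-07), and only short peaks were left: the longest H3K9ac peak there was 8.53 to 8.81 kb per Ctrl library and 0.810 to 0.925 kb per FGR library. H3K27ac covered 58.6, 57.1, 54.6 and 59.4 kb of the same domain in Ctrl and 38.98, 40.9, 40.3 and 35.8 kb in FGR, 67.9% of the Ctrl mean.

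**Figure D4:**
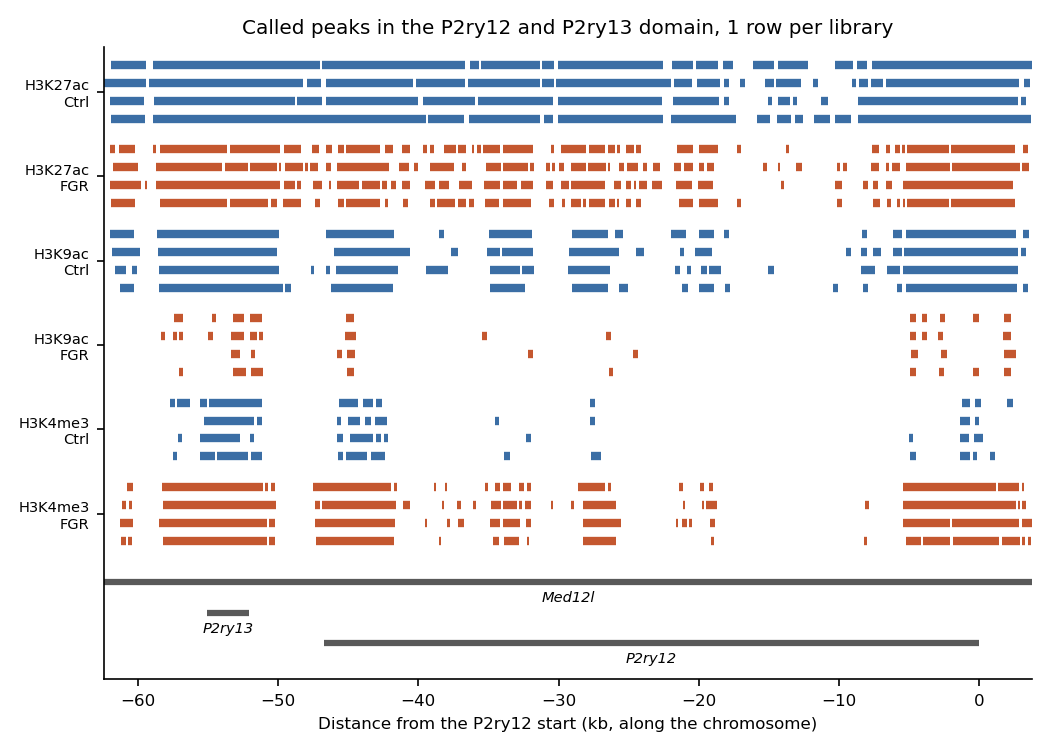
Called peaks (bars) in the P2ry12 and P2ry13 domain by distance from the P2ry12 start (kb along the chromosome), with 1 row per library, blue for Ctrl and orange for FGR, and gene bodies in grey below. FGR H3K9ac has 9 to 14 short peaks per library, the longest of 0.925 kb, where FGR H3K4me3 has blocks of up to 8.10 kb.

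The neighbouring rank differed. In the domain of Tmem119, the microglial gene behind the reporter, and Selplg, which encodes a P-selectin ligand (chr5:113760983-113844834), H3K9ac covered 34.7, 35.3, 34.0 and 33.7 kb in Ctrl and 35.8, 39.6, 35.8 and 31.0 kb in FGR. These ranges overlap (difference 1.13 kb, SE 1.58 kb, adjusted p = 0.542), and with lists of equal length the domain passed as lower (adjusted p = 0.00163). H3K27ac there averaged 57.3 kb ± 1.53 in the Ctrl libraries and 30.6 kb ± 2.79 in the FGR libraries (SD, n = 4). The other homeostatic domain that did not pass was that of Crybb1, at 26.4 kb ± 1.43 and 23.4 kb ± 3.17 (adjusted p = 0.141).

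H3K9ac was also lower in the homeostatic domains of Tgfbr2, Cx3cr1, Gpr34 and Bin1. At Tgfbr2 the libraries covered 41.5, 40.02, 38 and 40.5 kb in Ctrl and 18.4, 20.6, 16.4 and 14.2 kb in FGR (fall by 22.6 kb, SE 1.44 kb, adjusted p = 6.11e-06). At Cx3cr1, the fractalkine receptor gene, whose domain was a single region, they covered 31.0, 30.0, 31.8 and 27.8 kb in Ctrl and 13.04, 13.7, 10.6 and 10.6 kb in FGR (adjusted p = 9.27e-06). At Gpr34, a lysophospholipid receptor gene that lies within Cask on the X chromosome, they covered 12.47, 13.7, 11.9 and 12.2 kb in Ctrl, while 3 FGR libraries had no peak and replicate 2 had 0.254 kb. All Ctrl libraries lay above these (adjusted p = 4.83e-07). Bin1, an endocytosis gene, kept 19.9 kb of 29.6 kb (adjusted p = 0.00430).

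Genes of engulfment and movement were found on both sides. Of the 10 domains with a gene of complement and phagocytosis, 6 were lower, 1 was higher and 3 did not pass. Over all 500 domains these counts were 392, 25 and 83. At Elmo1 H3K9ac went from 31.4, 30.6, 29.9 and 29.4 kb in Ctrl to 7.13, 9.33, 5.78 and 5.87 kb in FGR (adjusted p = 1.81e-06). At Mertk it went from 28.5, 34.1, 30.3 and 28.3 kb to 13.997, 12.9, 12.4 and 10.6 kb (adjusted p = 2.51e-05). At Lrp1, a lipoprotein and phagocytic receptor gene that shares its domain with Stat6, Nab2 and Nemp1, it was higher, at 27.8 kb ± 0.849 over Ctrl and 33.4 kb ± 3.81 over FGR libraries (adjusted p = 0.0204).

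Of the 11 chemotaxis and motility domains, 10 were lower and 1, with Rac2 and Cyth4, was higher. Over all 500 domains, 78.4% were lower and 5% higher. The median FGR percentage of the 11 was 24.5%, against 49.2% over all 500. Dock10, a guanine nucleotide exchange factor gene, was the only domain of the 500 with no H3K9ac peak in any FGR library, against 10.5, 10.2, 8.56 and 9.88 kb in Ctrl (adjusted p = 1.08e-06). Its H3K27ac was not absent: it covered 13.5, 14.5, 17.6 and 11.4 kb in FGR and 29.1, 30.6, 28.3 and 31.3 kb in Ctrl. At Cyfip1, of the actin-regulating WAVE complex, the mean went from 27.8 to 6.82 kb, and in the Ccr1 chemokine receptor domain from 29.8 to 6.77 kb.

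The remaining lists had few domains each, so their counts cannot set them apart from the 500, of which 392 were lower, 25 higher and 83 not called. Of 5 domains with genes of the first list, 3 were lower (Ctsd; Ccl3, Ccl4 and Ccl6; B2m), and those of Cd9 and Cd68 did not pass. Of 6 inflammatory domains, those of Il10ra, Tgfb1, Nlrp3 and Nfkb1 were lower and those of Tnf and Socs3 did not pass. At Tnf the mean was 28.1 kb ± 0.256 over Ctrl and 28.2 kb ± 3.22 over FGR libraries (adjusted p = 0.937). Of 6 lysosomal domains, 4 were lower, and those of Psap and Cd68 did not pass. Of 4 housekeeping domains, those of B2m and Eef1a1 were lower, that of Rplp0 was higher and that of Actb did not pass. The Ifnar2 domain was lower and the Stab1 domain did not pass.

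The 5 smallest adjusted p among the lower domains belonged to Epc1, Lcp2, Akap13, Slc40a1 and Smap2. Lcp2, which encodes the adaptor SLP-76, covered 10.5, 10.4, 10.2 and 10.2 kb in Ctrl and 1.69, 1.86, 2.39 and 1.56 kb in FGR (adjusted p = 3.52e-07). Slc40a1, the gene of the iron exporter ferroportin, covered 9.56, 10.1, 10.2 and 10.04 kb in Ctrl and 1.64, 1.87, 2.12 and 1.41 kb in FGR (adjusted p = 3.55e-07). In both the spread within a group was small beside the difference.

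The 5 smallest adjusted p among the higher domains belonged to Sbno2, Arid3a, a domain near Cebpb, Rxra and Nfix. The Sbno2 domain (chr10:80015721-80118037), which also holds Arhgap45, Gpx4, Polr2e and Stk11, covered 19.9, 22.2, 20.2 and 19.5 kb in Ctrl and 46.5, 49.96, 42.9 and 39.4 kb in FGR, a difference of 24.2 kb (SE 2.08 kb, adjusted p = 2.64e-05). Rxra, a nuclear receptor gene, covered 18.2, 18.4, 17.8 and 17.8 kb in Ctrl and 35.0, 37.5, 31.4 and 28.0 kb in FGR, a difference of 14.9 kb (SE 1.92 kb, adjusted p = 0.000226). Every FGR library lay above every Ctrl library in both. H3K27ac was lower in all FGR libraries of the same domains, at 34.4 and 16.05 kb in the mean for Sbno2 and 28.5 and 13.97 kb for Rxra.

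The domain near Cebpb, which encodes a C/EBP factor, overlapped no protein-coding gene and covered 17.2 kb ± 0.428 over Ctrl and 24.6 kb ± 1.26 over FGR libraries (SD, n = 4; adjusted p = 0.000203). Nfix and Arid3a also encode DNA-binding factors, with means of 18.3 and 27.2 kb and of 14.6 and 27.03 kb. The 25 higher domains held more gene starts than the 392 lower ones, 2.28 against 1.14 on average. At least 3 starts were held by 10 of the 25 (40%) and by 31 of the 392 (7.91%), and 21 of the 83 not called (25.3%). Spans were similar, with medians of 56.5, 62.5 and 60.5 kb. As the groups were made by the H3K9ac test itself, these are descriptions.

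**Figure D5:**
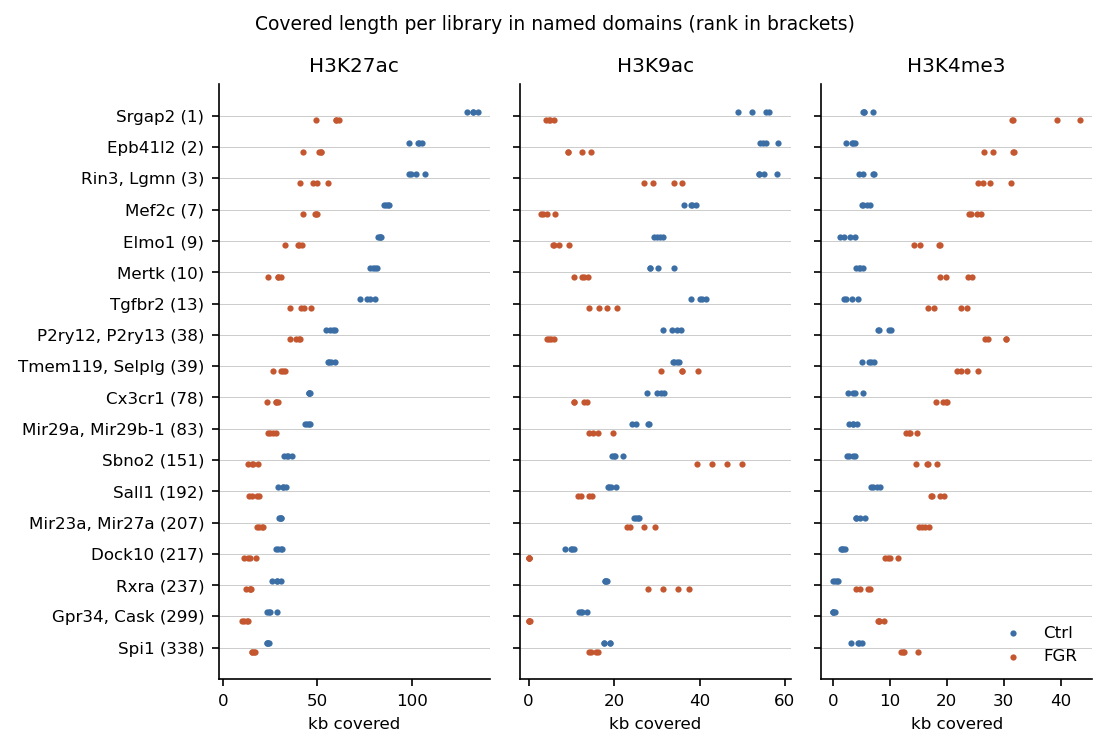
Covered length (kb, horizontal axes) of H3K27ac, H3K9ac and H3K4me3 in 18 named domains, with their rank in brackets and 1 point per library (4 Ctrl, blue; 4 FGR, orange). H3K27ac is lower in FGR in all rows, H3K9ac is higher in FGR at Sbno2 and Rxra and overlaps at Tmem119 and at Mir23a, and H3K4me3 is higher in FGR in all rows, a direction that rescaling turned at P2ry12, Tmem119, Sall1, Spi1 and Mir23a.

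The miRNA domains showed both patterns. In that of miR-29a and miR-29b-1, whose shared seed is shown above, H3K9ac covered 25.2, 28.2, 27.9 and 24.2 kb in Ctrl and 16.3, 19.7, 15.1 and 14.2 kb in FGR, a fall by 10.1 kb (SE 1.56 kb, adjusted p = 0.000623). In that of miR-23a, miR-27a and miR-24-2 it covered 25.8, 25.6, 25.1 and 24.7 kb in Ctrl and 27.1, 29.6, 23.1 and 23.7 kb in FGR. These overlap (adjusted p = 0.747), and the sign of the difference turned in some alternatives. H3K27ac was lower in both, at 44.9 and 25.9 kb for miR-29a and 30.5 and 19.99 kb for miR-23a.

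H3K4me3, as labelled, was higher in FGR in all 500 domains and lower in none (limma; none lower at an unadjusted p under 0.05 either), while 93.5% of all 13294 domains tested were higher and 0.015% lower. All FGR libraries lay above all Ctrl libraries in the 500, as in 77.8% of all 15346 domains, with 0.013% below. The median difference was 7.59 kb in the 500. The whole FGR lists covered 35.4 to 39.8 Mb and the whole Ctrl lists 10.6 to 12.2 Mb. After quantile normalization 298 of the 500 were higher and 25 lower (19.5% and 31.8% of all), and after division by the list's covered genome 296 were higher and 28 lower (32.4% and 27.6%).

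The Ctrl H3K4me3 lists covered little of the domains: the median domain had 2.15 kb in the Ctrl mean and 9.88 kb in the FGR mean. In 16 domains no Ctrl library had a peak, and in 439 all 4 had one. At Mef2c the libraries covered 6.57, 6.06, 5.06 and 5.30 kb in Ctrl and 24.3, 25.2, 26.1 and 23.9 kb in FGR, a difference of 19.1 kb (SE 0.665 kb, adjusted p = 3.07e-07). At Gpr34 and Cask 3 Ctrl libraries had none and replicate 2 had 0.487 kb, against 8.12, 8.998, 8.07 and 7.92 kb in FGR (adjusted p = 3.02e-07). The groups were separate at both, as at the other domains with the 5 smallest p, which were Nfia, Snx29 and Kif3b with Asxl1. At Nfia, a nuclear factor I gene, no Ctrl library had a peak and FGR libraries had 3.56, 3.80, 3.97 and 3.84 kb (adjusted p = 2.93e-07).

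Some homeostatic and identity genes were among those whose H3K4me3 direction rested on the scaling. In the P2ry12 and P2ry13 domain it covered 9.88, 7.97, 8.04 and 10.2 kb in Ctrl and 27.2, 30.4, 30.4 and 26.8 kb in FGR, a difference of 19.7 kb (SE 1.02 kb, adjusted p = 6.85e-07). With quantile normalization and with division by the list's covered genome it was lower there without passing (adjusted p = 0.358 and 0.450). At Sall1 it covered 7.74, 6.69, 8.21 and 7.12 kb in Ctrl and 17.4, 19.5, 18.9 and 17.3 kb in FGR (adjusted p = 1.75e-06). There both scalings gave a lower value that passed (adjusted p = 0.000226 and 0.00272). Spi1 turned under both scalings and the Tmem119 domain under quantile normalization, none of them passing.

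At the gene starts themselves the marks differed by group as follows. Windows from 250 bases before to 50 after a start carried an H3K27ac peak in all 4 Ctrl libraries at 760 of the 832 starts in the domains (91.3%) and in all 4 FGR libraries at 530 (63.7%). For H3K9ac the counts were 734 (88.2%) and 704 (84.6%), and for H3K4me3 273 (32.8%) and 722 (86.8%). Over all 21044 starts, the shares with a peak in all 4 libraries were 43.3% in Ctrl and 28.8% in FGR for H3K27ac. For H3K9ac they were 46.9% and 53.1%, the other direction from the starts in the domains, and for H3K4me3 they were 22.2% and 55.8%. Of the starts printed above, those of Tgfbr2 and P2ry13 had a peak of all 3 marks in every library of both groups. That of P2ry12 had H3K9ac in 4 Ctrl and 2 FGR libraries and H3K4me3 in 3 Ctrl and 4 FGR libraries. That of Mef2c had H3K9ac in 4 and 2 libraries and H3K4me3 in 2 and 4.

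H3K9me3, the heterochromatin mark, was thin over the domains. In replicates 1 to 3, whose lists hold broad peaks, it covered 4.56% ± 1.19 of the domains' span in Ctrl and 0.0599% ± 0.0221 in FGR (SD, n = 3). The domains held 0.383 to 0.396% of all bases of the Ctrl lists and 0.124 to 0.191% of the FGR lists. The limma fit on the percent of each domain's span called 267 of the 464 testable domains lower in FGR and none higher (none at an unadjusted p under 0.05 either), against 37.3% and 0.149% of all 4697. Quantile normalization gave 165 higher and 6 lower (13.4% and 3.51% of all), and division by the list's covered genome 5 and 251 (0.788% and 31.8%). The lists were made with different thresholds: Ctrl peaks reached down to a −log10 q of 0 and FGR peaks to 1.01, so that this count compares thresholds as well as groups. With both cut at the same −log10 q of 1.05, 22 of the 500 domains could be tested, of which 7 were higher and none lower. Of all 143 domains testable that way, 36 were higher and 2 lower. None of the 500 was lower with an FGR replicate left out, with the replicate block or with no filter, and over all domains 0 to 4 were. With a Ctrl replicate left out, 338 to 395 of the 423 to 441 testable members were lower. Over all domains 2457 to 3110 of 3265 to 3904 were lower in those fits. Lists of equal length also gave 0 lower, with 66 of the 500 testable. A stricter threshold left 0 of the 500 testable, so it could call none.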

How the data were processed

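Peak lists of 4 marks in 4 Ctrl and 4 FGR libraries each were used. Input libraries were left out. The submitters' processing notes name MACS2 (2.2.7.1) and Bowtie2 (2.4.5), the build mm10, and also SAMtools, Trim Galore and DiffBind, without their order. The authors deposited per peak a fold enrichment over background (a ratio), −log10 p and −log10 q, and a score, with no read counts, so depth is unknown. H3K9me3 lists of replicates 1 to 3 are broad and those of replicate 4 narrow, and the latter stayed out of the H3K9me3 test.

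Covered kb per domain and library (percent of the span for H3K9me3) was computed in Python 3.11.15 and compared by limma 3.58.1 with a mean trend, two-sided, over all joined domains with a peak in at least 2 libraries, with Benjamini-Hochberg adjustment and a threshold of 0.05. On simulated data with 200 changed domains per fold, the script recovered 34.5% (fold 0.5) and 0% (fold 1.5) of them for H3K4me3 (9918 domains), 88% and 67% for H3K9ac (14686), and 0% and 1% for H3K9me3 (7328). H3K27ac was not tested, since it chose the members. Named domains were the first 20, up to 4 of the longest per gene list, up to 5 of smallest adjusted p per mark and direction, 3 on each side of the cut, the 10 greatest and 10 smallest H3K27ac differences, and those of most regions and longest span. The members and lists were chosen with earlier results of these data known. The labels do not say that replicate numbers pair the samples, so the main fit treated them as unpaired. Alternatives changed stitching, threshold, list length, scaling, filter, trend, block and libraries. Some items are not reported here.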

Additional observations from a re-analysis of the deposited data

Results flagged for a closer look

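In groups of 4 libraries, the highest or lowest library stood apart from the others in 10 of 119 groups checked, where chance gives about 1 in 20. FGR replicate 4 was the low library for H3K27ac in 6 of them. It covered 7.83 Mb of the 500 domains (the others 9.20 to 9.44 Mb), 49.2 kb at Srgap2 (59.9 to 61.6 kb), 42.5 kb at Epb41l2 (51.2 to 51.9 kb), 42.4 kb at Mef2c (49.0 to 50.1 kb), 23.4 kb at Cx3cr1 (28.3 to 29.1 kb) and 12.1 kb at Rxra (14.4 to 14.8 kb). These domains share that library.

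Ctrl replicate 1 had 6.99 kb of H3K4me3 at Srgap2 where the others had 5.27 to 5.52 kb, and FGR replicate 2 had 14.9 kb at Spi1 where the others had 11.99 to 12.48 kb. In the Gpr34 and Cask domain Ctrl replicate 2 had 0.487 kb of H3K4me3 and FGR replicate 2 had 0.254 kb of H3K9ac, while the other libraries of each group had none. The narrow H3K9me3 list of FGR replicate 4, outside the comparison, covered 7.19 kb of the domains, and that of Ctrl replicate 4 covered 0 kb.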

How the results depend on the processing

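Of 984 alternative values for 29 named domains, 954 kept direction and side of the threshold, 12 lost the call, 3 gained it and 15 changed sign. Some of the 29 were picked for the smallest adjusted p, so these counts do not describe all 500. Quantile normalization gave 298 higher and 25 lower for H3K4me3, 101 higher for H3K9ac, 165 higher and 6 lower for H3K9me3, and 137 below and 130 above for H3K27ac. Division by the list's covered genome, chosen after seeing the data, gave 296 and 28 for H3K4me3, 5 higher for H3K9me3, and 126 below and 122 above for H3K27ac. Equal list length gave 454 higher and 4 lower for H3K4me3, with 474 of the 500 testable. Joining gaps of up to 4 kb gave 13 higher for H3K9ac. Leaving out 1 library gave 20 to 44 higher for H3K9ac, with 44 without FGR replicate 4. For H3K9me3, lower calls numbered 0 with no filter, the replicate block and 4 kb joining, 175 without the trend, and 0 to 395 with 1 library left out. They also numbered 0 with equal list length (66 testable) and the same −log10 q (22 testable, 7 higher, with 36 of all 143 higher). With a stricter threshold 0 of the 500 were testable. The cause was not tested. Sign changes, in kb, were for H3K4me3 under quantile normalization -0.599 (P2ry12), -0.126 (Tmem119), -5.78 (Sall1), -0.204 (miR-23a) and -1.56 (Spi1), and under division -0.979 (P2ry12), -4.36 (Sall1) and -1.18 (Spi1). For H3K9ac they were 2.02 at Spi1 under quantile normalization, -3.17 and -2.11 with equal list length and -0.44 and -0.612 with a stricter threshold at Tmem119 and miR-23a, where leaving out 1 library gave -0.207 to 2.64 and -0.665 to 1.49, negative without FGR replicate 2. With the replicate number as a block H3K4me3 gave 500 higher and 0 lower, H3K9ac 26 and 389 and H3K9me3 0 and 0. Whether the numbers pair samples is not stated in the labels and was not settled by correlation. In H3K27ac 3 of 4, in H3K9ac 2 of 4 and in H3K4me3 0 of 4 correlated best with their own number. Other rules kept 341 to 496 of the 500 members. Depth is unknown, which limits all covered lengths.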
